A study of Mus musculus with 28 samples.

Results

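The genes described here encode the Elongin complex and the ubiquitin ligases built on it, 8 genes in all (Eloa, Elob, Eloc, Cul5, Rnf7, Vhl, Cul2 and Rbx1). They were chosen by name, all 8 were found among the 24980 genes used, and all 8 passed the limit on low values in each condition. The readout was Bru-seq, a sequencing of nascent RNA that was tagged in living cells by a short pulse of bromouridine (BrU) and then purified. Mouse embryonic stem cells (mESCs), wild type (WT) or null for Elongin A (EloA null), were compared in 3 conditions, with 2 libraries per genotype in each. The steady-state cells had 2 mM BrU for 10 min and no drug. The recovery cells had 1 µM flavopiridol (FP), an inhibitor of the kinase that releases paused Pol II, for 60 min, and after its removal BrU for 5 min or 10 min. Both genotypes were grown on fibroblast feeders, in LIF with PD0325901 and CHIR99021, and depleted of the feeders before labelling. The labels call the cells CCE28 in one place and CJ7 in another, give no age or passage, and do not say which part of Eloa the null allele lacks or whether the line is 1 clone.

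Elongin A, B and C form a complex that stimulates elongation by Pol II in vitro. Elongin A also carries a motif that recruits CUL5 and its RING partner RNF7, and with Elongin B and C this assembly acts as a ubiquitin ligase for the largest Pol II subunit, RPB1, on stalled polymerase. The same Elongin B and C pair serves other ligases: with VHL, CUL2 and RBX1 it forms the ligase that marks HIF alpha subunits for degradation when oxygen is present.

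The genotype field of the first steady-state library titled EloA null reads wild type; the library was grouped by its title, so the group is called the libraries labelled EloA null. Library sizes, inferred from the spacing of low RPKM values, ran from 9857527 to 28547356 reads. All 10 markers of embryonic stem cells were expressed in every group, and their summed RPKM ran from 192.0 to 334.4 over the 12 libraries. Of 14 feeder fibroblast markers, 2 or 3 had a mean above 0.5 RPKM in any group, their sum ran from 2.23 to 5.25 and 0 or 1 of the 14 had a mean of 0 in a group (Thy1, Lum or Dcn). The feeder sum was lower in the null libraries without overlap in all 3 conditions (2.81 to 3.05 against 3.11 to 3.46 in steady state, 2.23 to 2.66 against 3.25 to 3.77 at 5-min recovery and 2.98 to 3.803 against 4.00 to 5.25 at 10-min recovery), and the stem cell sum was lower without overlap in both recovery conditions; their part in the results below was not tested. Of the stem cell markers, all 10 tested in steady state, 1 was past 1.5-fold higher and 0 lower. Over all tested genes 7.21% were past 1.5-fold higher and 2.1% lower. The median log2 ratio of the markers was 0.07, against 0.03 over all tested genes. Pou5f1 had 0.73 (SE 0.24), Dppa5a 0.40 (SE 0.18), Tfcp2l1 -0.14 (SE 0.11) and Zfp42 -0.12 (SE 0.11). Genes of chromosome 14 had a median log2 ratio of null to WT of 0.50 in steady state, 0.46 at 5-min recovery and 0.51 at 10-min recovery, against medians between -0.14 and 0.16 on the other 19 chromosomes. None of the 8 genes lies on it, and the part of copy number in this was not tested.

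In RefSeq, on GRCm38, Eloa spans 18280 bases of chromosome 4 (136003370 to 136021649, minus strand) with 11 exons, and the annotation lists no gene that overlaps it. Elob spans 4370 bases of chromosome 17 (23824740 to 23829109, minus strand), Eloc 15704 bases of chromosome 1 (16641725 to 16657428, minus strand), Cul5 52927 bases of chromosome 9 (53614581 to 53667507, minus strand) and Rnf7 7739 bases of the same chromosome (96470937 to 96478675, minus strand). Vhl spans 7641 bases of chromosome 6 (113623994 to 113631634, plus strand), Rbx1 10054 bases of chromosome 15 (81466316 to 81476369, plus strand) and Cul2 53731 bases. The RPKM values of all 8 genes stood for whole reads in 12 of 12 libraries at the summed length of their introns with an exon base on each side, 13708 bases for Eloa and 3868 bases for Elob. Gm16124 and Gm22304 overlap Cul5 by 415 and 129 bases and were not in the tables. This is the length the values were divided by. By the study's methods reads over whole genes were counted, and the values do not show which reads entered, so whether reads from exons of Eloa, removed or not, are part of its values cannot be told, and its level does not check the knockout. The depth behind a value ran from 51 to 380 reads for Vhl, the gene with the fewest, and from 386 to 3493 reads for Eloa.

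Eloa and Elob were the only members whose 4 libraries did not overlap in the same direction in all 3 conditions (values below). Over all tested genes, 32% were higher without overlap in steady state, 15.4% at 5-min recovery and 33.5% at 10-min recovery. The share of all genes with that pattern in all 3 was not counted, so whether it is unusual cannot be told. For these 2 genes the 250 bases before their annotated starts are shown, from RefSeq on GRCm38.p6. They run 5′ to 3′ on the strand of the gene, with GC boxes (GGGCGG) in capitals. The Eloa window is chr4:136021650-136021899 and the Elob window chr17:23829110-23829359, both on the minus strand.
Eloa: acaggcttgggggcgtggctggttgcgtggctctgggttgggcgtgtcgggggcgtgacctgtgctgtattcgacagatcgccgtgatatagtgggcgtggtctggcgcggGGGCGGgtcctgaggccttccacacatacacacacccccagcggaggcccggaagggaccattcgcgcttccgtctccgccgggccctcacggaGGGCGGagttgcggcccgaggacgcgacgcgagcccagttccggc
Elob: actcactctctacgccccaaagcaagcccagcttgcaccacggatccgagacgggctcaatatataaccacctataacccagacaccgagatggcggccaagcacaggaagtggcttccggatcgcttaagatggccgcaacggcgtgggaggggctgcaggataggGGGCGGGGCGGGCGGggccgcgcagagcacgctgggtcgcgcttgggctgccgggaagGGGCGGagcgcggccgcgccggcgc
Both windows are rich in CpG, with 28 CpG dinucleotides for Eloa and 27 for Elob against a median of 6 over the 32851 windows in the table. On either strand the Eloa window held 2 GC boxes and the Elob window 4, of which 3 overlap, and 32.7% of all windows of 250 bases held at least 1. Each also held 1 match to CCGGAAG, on the strand shown for Eloa and on the other strand for Elob, which 6.91% of all windows held. Neither held CCAAT or TATAAA, which 33.8% and 12.4% of windows held. These are matches of letters and not sites of binding.

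RPKM divides by length, so levels can be set beside each other within a library. In WT at steady state Rnf7 was highest, at 13.5 ± 0.46 RPKM (SD, n = 2), followed by Eloc (9.30 ± 1.10), Elob (6.23 ± 0.13), Rbx1 (5.01 ± 0.79), Cul5 (4.24 ± 0.0015), Cul2 (3.98 ± 0.069), Vhl (1.79 ± 0.090) and Eloa (1.17 ± 0.015). No neighbours in that order overlapped between their libraries. Eloa was thus the lowest of the 3 Elongin subunit genes and of all 8, above 28.5% of the 10794 genes expressed in WT, while Elob and Eloc stood above 89.5% and 94.4% of them. In the libraries labelled EloA null the order was the same but for 2 exchanges, of Cul2 with Cul5 and of Eloa with Vhl.

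**Figure D1:**
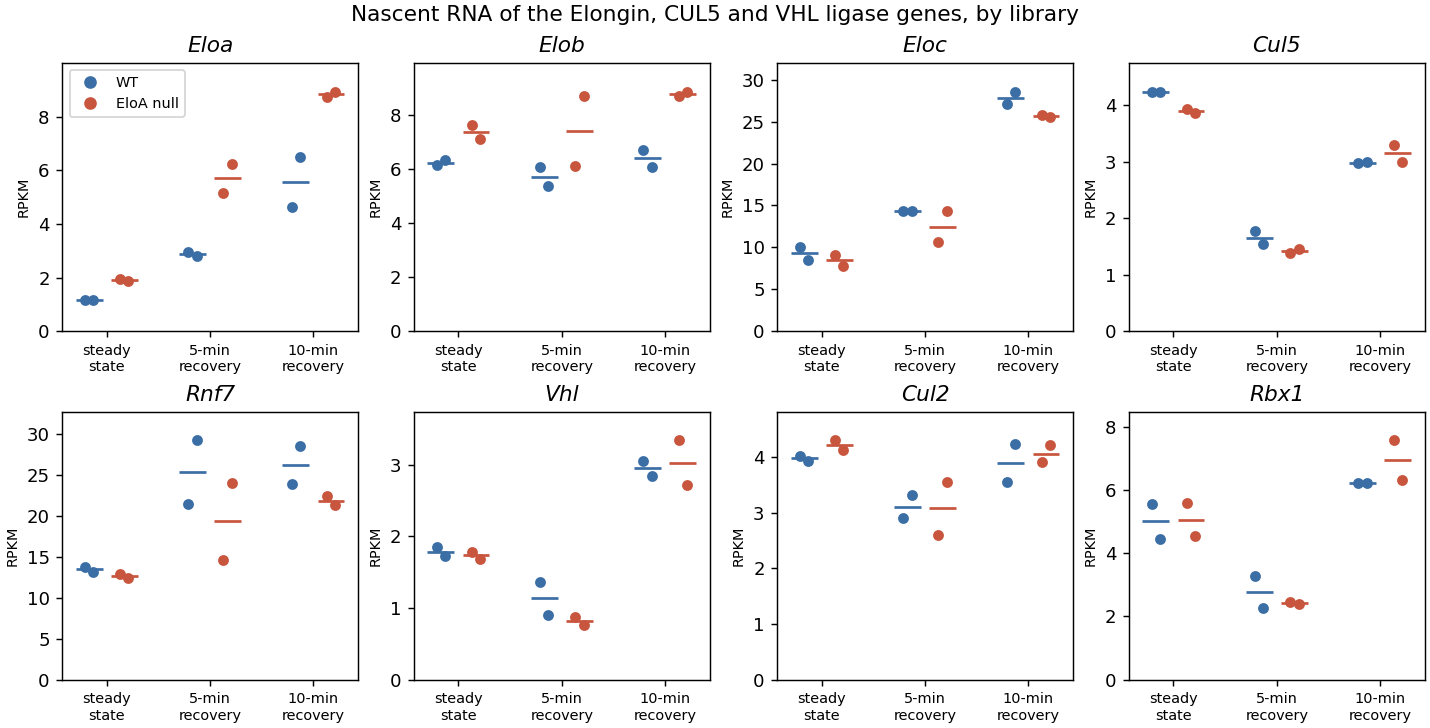
RPKM of the 8 genes in each of the 12 libraries (points) with the mean of each genotype (lines), by condition, on axes that start at 0. Eloa ran from 1.16 to 8.93 RPKM and its EloA null points lie above the WT points in each condition.

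Eloa, which encodes the subunit the null cells are named for, had more nascent RNA in the libraries labelled EloA null in all 3 conditions. In steady state its RPKM was 1.18 and 1.16 in WT and 1.96 and 1.89 in the null libraries. At 5-min recovery it was 2.96 and 2.82 against 5.14 and 6.25. At 10-min recovery it was 4.65 and 6.51 against 8.74 and 8.93. The groups did not overlap in any condition, and the ratio of the means was 1.65, 1.97 and 1.58. The limma log2 ratios of log2(RPKM + 0.1) were 0.67 (SE 0.08, adjusted p = 0.0999), 0.95 (SE 0.18, adjusted p = 0.249) and 0.67 (SE 0.18, adjusted p = 0.176), so Eloa did not pass the threshold in any table. Where all 12 libraries shared the estimate of spread, limma called it at 5-min recovery (adjusted p = 0.0169, over the alternatives 0.0169 to 0.652). In bulk RNA, more cells that make a transcript and more of it per cell cannot be told apart. With the null library whose genotype label reads wild type left out, the steady-state ratio was 1.62. At 10-min recovery the ratio fell under 1.5 without the first WT library (1.36) and when each library was centred on its median (1.47).

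Elob, the ubiquitin-like adaptor subunit, lay the same way by less. Its RPKM was 6.14 and 6.32 in WT and 7.62 and 7.13 in the null libraries in steady state, 6.08 and 5.37 against 6.12 and 8.70 at 5-min recovery, and 6.72 and 6.09 against 8.73 and 8.87 at 10-min recovery. No groups overlapped, though at 5-min recovery the closest libraries differed by less than the null pair did. The log2 ratios were 0.24 (SE 0.09, limma adjusted p = 0.273), 0.35 (SE 0.23, adjusted p = 0.725) and 0.45 (SE 0.10, adjusted p = 0.143). Without the second null library the value at 5-min recovery was 0.10, and without the first it was 0.60. Elob belongs to the genes under 10 kb, whose median log2 ratio was 0.17 in steady state, 0.25 at 10-min recovery and -0.0019 at 5-min recovery, so that the log2 ratio of Elob minus that median was 0.07 in steady state, 0.35 at 5-min recovery and 0.20 at 10-min recovery. Its 3′ end overlaps that of Srrm2, on the other strand, by 2 bases, and the use of strand in the counting is not stated; the log2 ratio of Srrm2 was 0.15 (SE 0.09) in steady state, -0.08 (SE 0.22) at 5-min recovery and 0.06 (SE 0.16) at 10-min recovery.

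Eloc, the subunit that joins Elongin B to the substrate receptors and the cullin, did not share this direction. Its RPKM was 10.1 and 8.52 in WT and 9.15 and 7.81 in the null libraries in steady state, which overlap. At 5-min recovery it was 14.3 in both WT libraries and 10.6 and 14.4 in the null libraries, which overlap as well. At 10-min recovery the values were 27.1 and 28.6 against 25.8 and 25.5, without overlap. The log2 ratios were -0.13 (SE 0.14), -0.21 (SE 0.22) and -0.11 (SE 0.08), with limma adjusted p-values of 0.644, 0.812 and 0.454.

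A ratio of 2 genes within a library does not depend on how libraries were scaled. Eloa over Eloc was 0.117 and 0.136 in WT and 0.214 and 0.242 in the null libraries in steady state, 0.207 and 0.197 against 0.486 and 0.434 at 5-min recovery, and 0.172 and 0.228 against 0.338 and 0.350 at 10-min recovery. The null libraries were higher without overlap each time, by 1.80, 2.28 and 1.72 times. Elob over Eloc was higher without overlap as well, by 1.29, 1.48 and 1.49 times. Eloa over Elob was higher in steady state (1.39 times) and at 5-min recovery (1.54 times), and overlapped at 10-min recovery, where WT gave 0.692 and 1.07. In each comparison without overlap the exact two-sided permutation p was 0.333, the smallest that 2 against 2 libraries can give. The share of other gene pairs without overlap was not counted, so whether this is unusual cannot be told. The ratios are built from the same genes, so they are not independent of each other.

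**Figure D2:**
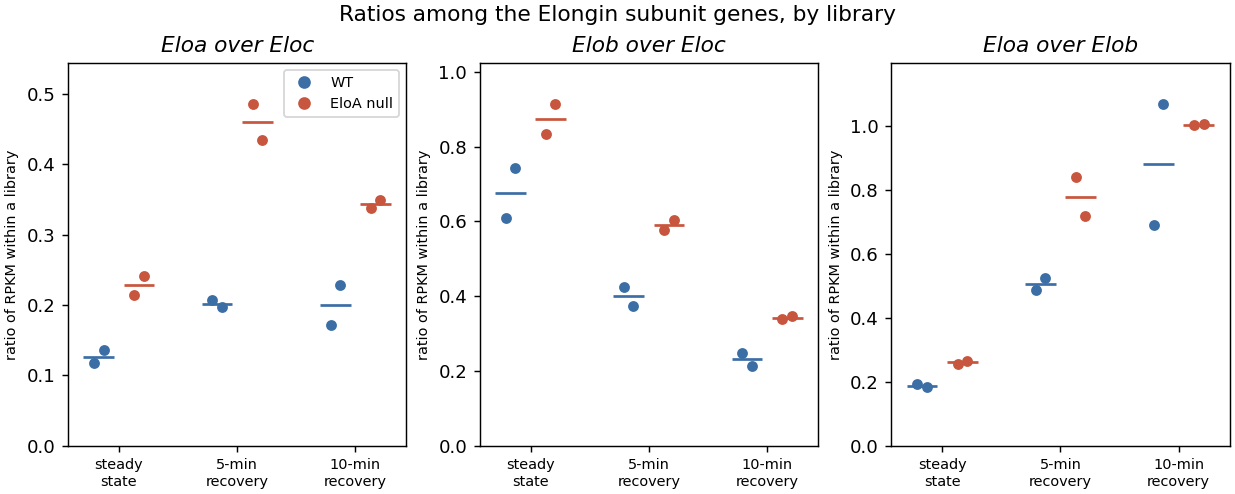
Ratio of RPKM between pairs of Elongin subunit genes within each library (points) with the mean of each genotype (lines), on axes that start at 0. For Eloa over Eloc and for Elob over Eloc the EloA null points lie above the WT points in all 3 conditions, by 1.29 to 2.28 times in the means.

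Cul5, the cullin scaffold that Elongin A recruits, differed little between genotypes. Its RPKM was 4.24 in both WT libraries and 3.94 and 3.87 in the null libraries in steady state, and 1.77 and 1.54 against 1.39 and 1.46 at 5-min recovery. At 10-min recovery it was 2.97 and 3.00 against 3.30 and 3.00. The groups did not overlap in any condition, with the null libraries lower in the earlier comparisons and higher at 10-min recovery, where a library of each genotype stood at 3.00 and centring the libraries turned the log2 ratio to -0.023. The log2 ratios were -0.12 (SE 0.08), -0.20 (SE 0.15) and 0.07 (SE 0.10), and the limma adjusted p-values were 0.477, 0.750 and 0.698.

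Rnf7, the RING subunit of the CUL5 ligase, had 13.8 and 13.2 RPKM in WT and 12.9 and 12.4 in the null libraries in steady state, without overlap. At 5-min recovery the pairs were widely spread, 21.5 and 29.3 against 14.7 and 24.1, and overlapped. At 10-min recovery the values were 23.9 and 28.5 against 22.4 and 21.4. The null libraries were lower there without overlap. The log2 ratios were -0.09 (SE 0.09), -0.41 (SE 0.31) and -0.25 (SE 0.12), with limma adjusted p-values of 0.632, 0.747 and 0.306. Relative to the median of genes under 10 kb, the log2 ratio of Rnf7 was -0.26, -0.41 and -0.51. That of Vhl, in the same length class, was -0.21, -0.41 and -0.22. Rnf7 over Rbx1, the RING subunit of the CUL2 ligase, overlapped between genotypes in steady state and at 5-min recovery and was 3.84 and 4.57 in WT against 2.97 and 3.38 in the null libraries at 10-min recovery, without overlap (exact permutation p = 0.333).

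Vhl, the substrate receptor for HIF alpha, rested on the fewest reads, and its groups overlapped in all conditions but 5-min recovery. Its RPKM was 1.85 and 1.72 in WT and 1.79 and 1.69 in the null libraries in steady state. At 5-min recovery it was 1.37 and 0.905 against 0.876 and 0.758, without overlap, and at 10-min recovery 3.06 and 2.85 against 3.34 and 2.72. The log2 ratios were -0.04 (SE 0.08), -0.41 (SE 0.23) and 0.03 (SE 0.13), with limma adjusted p-values of 0.846, 0.670 and 0.915.

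Cul2, the scaffold of the VHL ligase, had 4.03 and 3.93 RPKM in WT and 4.299 and 4.12 in the null libraries in steady state, higher without overlap. At 5-min recovery it had 2.90 and 3.32 against 2.61 and 3.55, and at 10-min recovery 3.56 and 4.24 against 3.91 and 4.22, both with overlap. Its log2 ratios were 0.08 (SE 0.08), -0.03 (SE 0.21) and 0.06 (SE 0.13), and the limma adjusted p-values were 0.629, 0.980 and 0.801. Cul5 over Cul2 was 1.05 and 1.08 in WT and 0.917 and 0.939 in the null libraries in steady state, lower without overlap (exact permutation p = 0.333), and overlapped in recovery.

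Rbx1, the RING subunit of the VHL ligase, had 5.57 and 4.46 RPKM in WT and 5.58 and 4.54 in the null libraries in steady state, and 3.28 and 2.26 against 2.47 and 2.40 at 5-min recovery. At 10-min recovery it had 6.21 and 6.23 against 7.57 and 6.32. The groups overlapped in the earlier comparisons and not at 10-min recovery. The log2 ratios were 0.01 (SE 0.16), -0.16 (SE 0.22) and 0.15 (SE 0.12), with limma adjusted p-values of 0.972, 0.872 and 0.514.

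**Figure D3:**
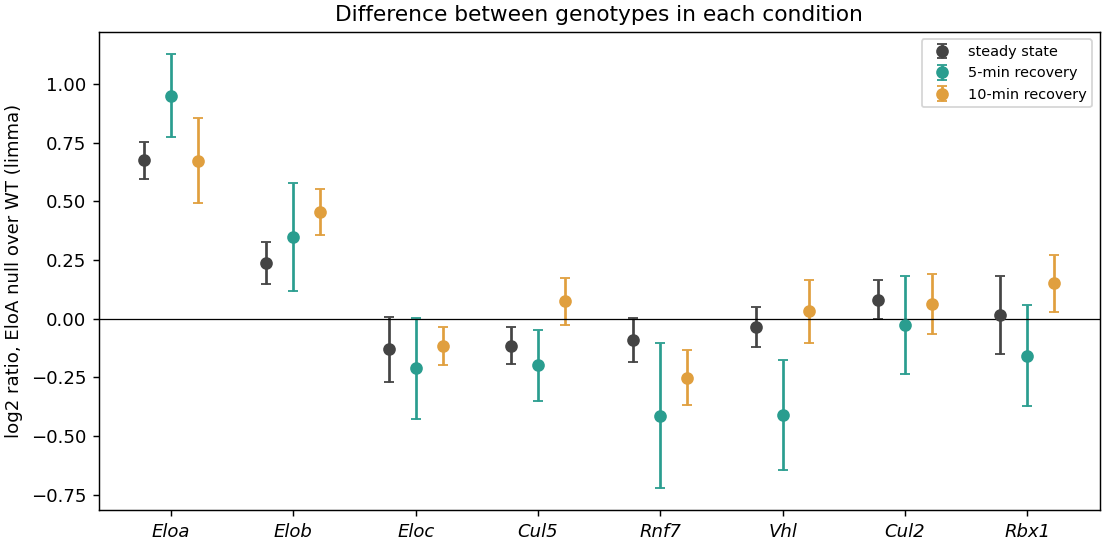
limma log2 ratio of EloA null to WT for each gene in the 3 conditions; points are estimates and bars ± 1 SE, from 2 libraries per genotype. Eloa stands highest in each condition (0.67, 0.95 and 0.67), Elob is above 0 in all, and the other estimates run from -0.41 to 0.15.

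Counted over the group, 0 of 8 genes passed an adjusted p of 0.05 in any table, as did 0% of all genes tested by limma (0 of 11345 in steady state, 0 of 8984 at 5-min recovery and 0 of 10239 at 10-min recovery), while 2083, 846 and 2098 genes had an unadjusted p under 0.05. At that unadjusted level stood 1 of the 8 genes in steady state, 1 at 5-min recovery and 2 at 10-min recovery. Past 1.5-fold and higher in the null libraries was 1 gene, Eloa, in each table, against a background of 7.21%, 5.4% and 9.41% of tested genes. Past 1.5-fold and lower were 0 of 8 in each, against 2.1%, 6.72% and 3.01%. Higher without overlap were 3 genes in steady state (background 32%), 2 at 5-min recovery (15.4%) and 4 at 10-min recovery (33.5%). Lower without overlap were 2 genes in each, against 21.4%, 25% and 21.8%. The median log2 ratio of the 8 genes was -0.01, -0.18 and 0.07, beside 0.03, -0.06 and 0.06 over all tested genes.

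Of genes past 1.5-fold in either direction, 77.5%, 44.5% and 75.8% were higher in the null libraries, and when libraries were centred on their medians these shares were 69.6%, 54.5% and 63.4%. Eloa stood above 95.7%, 97.5% and 93.9% of tested genes by its log2 ratio. Against the median of genes of 10 to 20 kb, its length class, it was higher by 0.61, 0.99 and 0.59 (log2). The genes around it were looked up after these values were seen. Of the tested genes that start within 1 Mb of Eloa, 22 in steady state, 14 at 5-min recovery and 20 at 10-min recovery, 4, 1 and 6 were past 1.5-fold higher and 0 lower, with median log2 ratios of 0.24, -0.0035 and 0.24, and 4, 1 and 5 of them had a larger log2 ratio than Eloa. Over all tested genes 7.21%, 5.4% and 9.41% were past 1.5-fold higher and 2.1%, 6.72% and 3.01% lower. Nipal3, among those near Eloa in steady state, had 0.386 RPKM in WT and 0.764 in the null libraries. It passed the limit of 0.5 RPKM only through the null group. Mir700 and Rcan3, which start at 135416555 and 135412308, both count in steady state and at 10-min recovery. Whether they share reads was not tested. Chromosome 4 as a whole had medians of 0.03, -0.11 and 0.04.

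The 8 genes differed widely in their levels after release from FP, with Eloa at the upper end in both genotypes. Expressed over its own steady-state mean, the RPKM of Eloa in WT was 2.53 and 2.41 times as high at 5-min recovery and 3.98 and 5.58 times as high at 10-min recovery. In the null libraries it was 2.68 and 3.25 times, then 4.55 and 4.64 times. Dividing by the median ratio of the library moved these means to 3.13 and 4.06 in WT and 3.92 and 3.87 in the null libraries. How the 3 tables were scaled to each other is not stated, and the BrU pulse was 5 min in one of them, so each ratio was also placed among all genes expressed in steady state. The Eloa ratio in WT was above that of 96.3% of 10794 genes at 5-min recovery and 99.4% at 10-min recovery, and in the null libraries above 97.7% and 99.0% of 11128 genes. The median over all genes was 0.631 and 1.03 in WT, and that of genes of 10 to 20 kb was 0.651 and 1.70.

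Eloc showed the next largest ratio at 10-min recovery, 2.99 ± 0.11 in WT and 3.03 ± 0.028 in the null libraries (SD, n = 2), after 1.54 ± 0.00015 and 1.47 ± 0.32 at 5-min recovery. Elob stayed near its steady-state level, at 0.919 ± 0.081 and 1.03 ± 0.071 in WT and 1.00 ± 0.25 and 1.19 ± 0.013 in the null libraries. The levels of Eloa and Elob came closer: Eloa over Elob within a library went from 0.187 in WT at steady state to 0.506 and 0.880 in recovery, and from 0.261 to 0.779 and 1.00 in the null libraries, with no overlap between either recovery condition and steady state within a genotype. At 10-min recovery Eloa and Elob overlapped in both genotypes, and Eloc (27.8 RPKM) overlapped Rnf7 (26.2 RPKM) at the head of the order in WT.

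The 2 RING genes parted. Rnf7 was 1.88 ± 0.41 times its steady-state level at 5-min recovery in WT, above 92.1% of genes, and 1.94 ± 0.24 times at 10-min recovery. Rbx1 was 0.553 ± 0.14 and 1.24 ± 0.0030 times. In the null libraries Rnf7 had 1.53 ± 0.53 and 1.73 ± 0.061, and Rbx1 had 0.481 ± 0.0087 and 1.37 ± 0.17. Rnf7 over Rbx1 in WT was 2.48 and 2.95 in steady state, 6.54 and 12.9 at 5-min recovery and 3.84 and 4.57 at 10-min recovery, and all the recovery values lay above the steady-state ones.

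The cullin genes, the longest of the 8, had means below their steady-state level. In WT Cul5 was at 0.390 ± 0.039 at 5-min recovery and 0.705 ± 0.0048 at 10-min recovery, and Cul2 at 0.782 ± 0.075 and 0.980 ± 0.12. In the null libraries Cul5 was at 0.365 ± 0.012 and 0.807 ± 0.053, and Cul2 at 0.731 ± 0.16 and 0.965 ± 0.052. The median of genes of 40 to 70 kb was 0.469 and 0.750 in WT, so Cul5 lay below it and Cul2 above it (in the null libraries the medians were 0.419 and 0.721, and Cul5 lay above at 10-min recovery), although both span about the same length (52927 and 53731 bases). Cul5 over Cul2 in WT was 1.07 ± 0.018 in steady state, 0.537 ± 0.10 at 5-min recovery and 0.772 ± 0.091 at 10-min recovery, lower without overlap in both. Vhl was at 0.637 ± 0.18 in WT and 0.470 ± 0.048 in the null libraries at 5-min recovery, and at 1.65 ± 0.082 and 1.74 ± 0.25 at 10-min recovery.

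**Figure D4:**
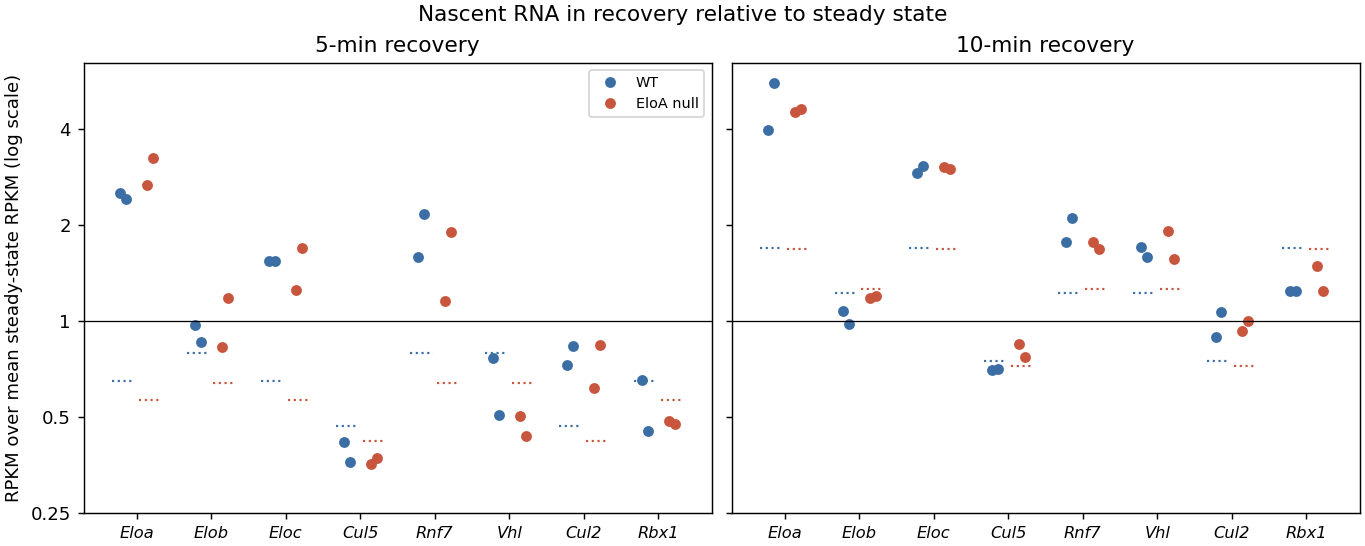
RPKM in recovery over the mean steady-state RPKM of the same genotype, per library (points), on a log axis; dotted lines give the median of expressed genes of the same length class in that genotype, and the solid line marks a ratio of 1. Eloa stands highest in both panels, at 2.41 to 3.25 and 3.98 to 5.58, and Cul5 lowest, at 0.356 to 0.417 and 0.701 to 0.845.

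Whether the effect of the genotype differed between recovery and steady state was tested in a limma fit of all 12 libraries. The difference of the log2 ratios at 5-min recovery and steady state was 0.28 (SE 0.22, adjusted p = 0.844) for Eloa, 0.11 (SE 0.22, adjusted p = 0.942) for Elob, -0.37 (SE 0.25, adjusted p = 0.839) for Vhl and -0.32 (SE 0.33, adjusted p = 0.877) for Rnf7, and between -0.17 and -0.08 for the other 4 genes. At 10-min recovery it was -0.00022 (SE 0.22) for Eloa, 0.21 (SE 0.22) for Elob and 0.19 (SE 0.13) for Cul5, all with an adjusted p of 1, and between -0.16 and 0.13 for the others. None of the 8 passed, against a background of 0.1% of 11973 genes at 5-min recovery and 0.00835% at 10-min recovery. The median difference over all genes was -0.11 at 5-min recovery and 0.01 at 10-min recovery. Both comparisons use the same steady-state libraries.

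By a fixed rule the genes whose pattern was most like that of Eloa were looked for, using Pearson's r over 12 libraries of log2(RPKM + 0.1) centred within each table, among 5454 other genes with a mean of at least 1 RPKM in all 3. They were Pbrm1 (r = 0.980), Bmpr1a (0.969), Rbm26 (0.968), Kif13b (0.968) and Kctd6 (0.967). All 5 lie on chromosome 14, the chromosome whose genes were higher as a whole in the null libraries. Of the members, Elob came highest, with r = 0.816 at rank 300, Cul2 had 0.331, and Rbx1, Eloc, Rnf7 and Cul5 lay between -0.02 and -0.48, while Vhl fell under the limit of 1 RPKM. These r describe how 6 WT and 6 null libraries fell and carry no test.

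The wider set of substrate receptors that bind Elongin B and C through a BC box counted 51 genes, of which 34 were tested in steady state. None passed the adjusted p, 0 were past 1.5-fold higher and 2 lower, 9 were higher and 11 lower without overlap, and the median log2 ratio was -0.01. The 2 past 1.5-fold lower were Pramel6 and Asb11. Asb11 had 0.690 ± 0.026 RPKM in WT and 0.438 ± 0.022 in the null libraries, so it passed the limit of 0.5 RPKM only through the WT group. Over all genes tested in steady state, 7.21% were past 1.5-fold higher and 2.1% lower, 32% were higher and 21.4% lower without overlap, and the median was 0.03; the steady-state counts of the lists that follow stand against the same shares. Pramel6, a PRAME family gene of naive stem cells, had 3.51 ± 0.13 RPKM in WT and 1.42 ± 0.018 in the null libraries in steady state (log2 ratio -1.25, SE 0.08, limma adjusted p = 0.0636), and log2 ratios of -2.22 (SE 0.27) at 5-min recovery and -1.51 (SE 0.09) at 10-min recovery. Pramel7 had log2 ratios of -0.40 (SE 0.17), -0.67 (SE 0.19) and -0.58 (SE 0.09). Both belong to a multigene family, and only uniquely aligned reads were kept, so reads shared with close copies may be missing from their values. At the other end stood Socs4 (0.42, SE 0.13), a SOCS-box receptor on chromosome 14, and Fem1a (0.42, SE 0.12), a receptor for C-terminal degrons. At 5-min recovery 29 receptor genes were tested, with 0 past 1.5-fold higher, 3 lower and a median of -0.14. The 3 were Pramel6, Pramel7 and Socs3. Socs3 had 1.59 ± 0.96 RPKM in WT and 0.386 ± 0.33 in the null libraries, so it passed the limit only through the WT group. At 10-min recovery 32 were tested, with 0 higher, 2 lower and a median of -0.0018. Over all genes 5.4% were past 1.5-fold higher and 6.72% lower at 5-min recovery, with a median of -0.06. At 10-min recovery the shares were 9.41% and 3.01%, with a median of 0.06. The recovery counts of the lists that follow stand against these shares.

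A list of the other cullin genes and of cullin partners, among them a partner of CUL5, had 10 tested genes of 11 in steady state, with 0 past 1.5-fold in any table, 2 higher and 5 lower without overlap and a median log2 ratio of -0.05. Arih2, the RING-between-RING ligase that works with neddylated CUL5, had 25.6 ± 0.77 RPKM in WT and 19.9 ± 0.55 in the null libraries (log2 ratio -0.36, SE 0.10, adjusted p = 0.183), and Cul3 had -0.26 (SE 0.12). Keap1, a receptor of CUL3, had 0.33 (SE 0.09) and Cul4a 0.02 (SE 0.09). In the list of neddylation and signalosome genes, 22 of 22 were tested in steady state, 1 was past 1.5-fold higher and 0 lower (background 7.21% and 2.1%), 4 were higher and 10 lower without overlap (background 32% and 21.4%), and the median was -0.06. The one was Nedd8, the modifier that activates cullins, with 2.47 ± 0.19 and 3.84 ± 0.26 RPKM (log2 ratio 0.62, SE 0.10, limma adjusted p = 0.114), and it lies on chromosome 14. Cops6, a signalosome subunit, had 0.37 (SE 0.09), while Ube2m, a NEDD8-conjugating enzyme, had -0.28 (SE 0.15) and Cand1, the cullin exchange factor, -0.18 (SE 0.08). In recovery the list had 0 and 1 past 1.5-fold higher (background 5.4% and 9.41%), 0 lower in both (6.72% and 3.01%), and medians of -0.0012 and -0.03.

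The list of the HIF axis held HIF subunits and HIF hydroxylases as well as genes downstream. In steady state 19 of 26 genes were tested, with 2 past 1.5-fold higher and 0 lower (background 7.21% and 2.1%). Without overlap 9 were higher and 2 lower (background 32% and 21.4%). The median log2 ratio was 0.22 (0.03 over all genes), or 0.16 without the gene on chromosome 14. Vegfa, the endothelial growth factor, had 1.87 ± 0.025 RPKM in WT and 3.58 ± 0.24 in the null libraries (log2 ratio 0.90, SE 0.09, limma adjusted p = 0.0858) and 0.86 (SE 0.15) at 10-min recovery. Ndrg1, looked up after its value was seen, was the other past 1.5-fold (0.64, SE 0.22). It had 0.323 ± 0.041 RPKM in WT and 0.563 ± 0.13 in the null libraries, so it passed the limit of 0.5 RPKM only through the null group. Ddit4, a stress gene that restrains mTOR, had 0.53 (SE 0.23). Hif1a, which encodes the subunit that VHL binds, had -0.29 (SE 0.12) and its partner Arnt -0.14 (SE 0.08). At 5-min recovery 11 genes were tested, with 1 past 1.5-fold higher (background 5.4%) and a median of -0.15 (-0.06 over all genes). That gene was Ddit4, at 0.408 ± 0.23 RPKM in WT and 0.962 ± 0.22 in the null libraries. There it too passed the limit only through the null group. At 10-min recovery 13 genes were tested, with 2 higher (background 9.41%) and a median of 0.20 (0.06 over all genes).

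For RPB1, the substrate of the Elongin A ligase, a list of Polr2a and genes of its ubiquitylation and of transcription-coupled repair had 15 of 15 tested in steady state. None was past 1.5-fold in any table, 5 were higher and 3 lower without overlap in steady state, and the median log2 ratios were 0.03, -0.10 and 0.0024. Ercc6, the repair factor CSB, had 2.29 ± 0.040 RPKM in WT and 3.01 ± 0.059 in the null libraries (log2 ratio 0.38, SE 0.08, limma adjusted p = 0.138) and lies on chromosome 14. Otud1, a deubiquitylase, had 0.30 (SE 0.09), Bard1 -0.20 (SE 0.11) and Nedd4l, a HECT ligase, -0.11 (SE 0.10). No gene of these lists passed an adjusted p of 0.05 in any table.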

How the data were processed

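Per the labels and the study's methods, Bru-seq reads were aligned to mm10 with Bowtie2 2.3.4.3, uniquely aligned reads were kept, reads over whole RefSeq genes were counted with featureCounts 1.6.1 and normalized with edgeR, and the authors deposited RPKM in 1 table per condition, without pooling replicates. The use of strand in the counting and the scaling between tables are not given in the sources used here. The mean columns (the authors' means) and the other 16 samples (chromatin profiling) were not used here.

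Library sizes and counted lengths were inferred from the spacing of low RPKM values (whole within 0.01 read), a method tested on simulated data. With RPKM deposited, no count test was run. limma 3.58.1 (R 4.3.3, intensity trend, Benjamini-Hochberg adjustment) was first tested on simulated data. The simulation used the same spread for all genes and changes only in steady state, so power in recovery was not tested. limma was then fitted within each table to log2(RPKM + 0.1) of genes with a mean above 0.5 RPKM in either genotype. A fold on this scale understates the change of low genes. A ratio of mean RPKM past 1.5 and the lack of overlap between genotypes were counted beside it. Differences between conditions came from 1 fit of all 12 libraries. For ratios within a library the test was an exact permutation of the genotype labels, two-sided. Libraries are taken as replicates by their titles; nothing says that they came from separate cultures, so p-values measure the spread between these libraries, which may be technical. Figures and ratios were made in Python with pandas, scipy and matplotlib.

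The members, the gene lists and the rules were chosen with earlier results of these data known. All 8 members are named; of each list, the 2 largest and 2 smallest log2 ratios in steady state among genes with at least 1 RPKM in both genotypes; and the 5 genes most like Eloa. Ndrg1, Asb11 and Socs3 were added after their values were seen. Alternatives were other pseudocounts (0.01 and 1), no filter or a mean above 1 RPKM, centring, a replicate block, a fit of all 12 libraries, and leaving out each library.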

Additional observations from a re-analysis of the deposited data

Results flagged for a closer look

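Cul5 was the only one of the 8 genes whose libraries lay apart in opposite directions in a pair of conditions: both libraries labelled EloA null were below both WT libraries in steady state and above them at 10-min recovery. The effect of the genotype at 10-min recovery minus that in steady state was 0.19 (log2, SE 0.13), which the test of the difference itself did not call (limma adjusted p = 1). With the libraries centred on their medians the log2 ratio at 10-min recovery was -0.023, so that direction changed with the scaling. Groups of 2 libraries are too small for a check of single libraries that stand apart.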

How the results depend on the processing

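Of 264 alternatives for the null against WT in the 8 genes, 247 kept direction and side of the threshold, 1 called Eloa (5-min recovery, all 12 libraries in a fit) and 16 changed sign; of 224 for the differences between conditions, 198 kept both and 26 changed sign. None that changed sign was called. The RPKM filters, the replicate block and the fit of all 12 libraries leave the log2 ratio of a gene as it was. In those alternatives the direction was fixed in advance and only the adjusted p could move. Centring libraries turned Rbx1 in steady state to -0.045, Cul2 at 5-min recovery to 0.039, and Cul5, Vhl and Cul2 at 10-min recovery to -0.023, -0.065 and -0.035; of the differences, Eloc, Cul5 and Cul2 at 5 min to 0.071, 0.069 and 0.044 and Eloc at 10 min to -0.00023. A pseudocount of 1 turned Eloa at 10 min to 0.16. Leaving out a library gave ranges that cross 0 for Vhl (-0.085 to 0.013) and Rbx1 (-0.14 to 0.17) in steady state, Eloc (-0.43 to 0.0072), Cul2 (-0.24 to 0.19) and Rbx1 (-0.42 to 0.10) at 5-min recovery, and Vhl (-0.11 to 0.17) and Cul2 (-0.061 to 0.19) at 10-min recovery; for the differences, at 5 min Elob (-0.14 to 0.36), Eloc (-0.30 to 0.14), Cul5 (-0.18 to 0.012), Rnf7 (-0.68 to 0.033), Cul2 (-0.32 to 0.11) and Rbx1 (-0.43 to 0.086), and at 10 min Eloa (-0.24 to 0.24), Eloc (-0.10 to 0.14), Vhl (-0.075 to 0.21), Cul2 (-0.14 to 0.11) and Rbx1 (-0.023 to 0.29). Where an arm kept 1 library, it was assumed to vary like the others.

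Over all genes, limma called 0 in each table, but with all 12 libraries in a fit 132 in steady state, 532 at 5-min recovery and 264 at 10-min recovery. At 10-min recovery a pseudocount of 1 gave 5 and centring 12. Leaving out a library gave 0 to 90 at 5-min recovery and 0 to 81 at 10-min recovery. For the differences (12 at 5 min and 1 at 10 min), pseudocounts of 0.01 and 1 gave 34 and 3 at 5 min and 6 and 4 at 10 min, no filter 97 and 54, a mean above 1 RPKM 0 at 10 min, and leaving out a library 5 to 30 and 1 to 4. The replicate block gave 128 calls at 5-min recovery, 0 in the other tables, and 2 and 1 for the differences; it called none of the 8 genes. Same-numbered libraries correlated by 0.101, 0.119 and 0.103 in their deviations, with 2 pairs and no label that ties them, so whether the numbers pair the libraries is not settled. The cause of these changes was not tested. Chosen after seeing the data, leaving out chromosome 14 gave 647 genes past 1.5-fold higher and 238 lower in steady state, 363 and 597 at 5-min recovery, and 796 and 305 at 10-min recovery. Dividing by the library's median took the recovery ratio of Elob in WT to 1.16 at 5 min and 0.866 at 10 min, across 1 in both. Vhl, at 51 to 380 reads, is limited most by depth.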
